A study of Mus musculus with 4 samples.

Results

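The genes described here were the cadherins and the non-clustered protocadherins, chosen as every symbol of the deposited feature list that reads Cdh and digits, or Pcdh and digits with an optional x. The rule found 35 genes among 32287 features; it reads symbols alone, but the family was picked for description with earlier results of these data known. In the nuclei kept for analysis they held 1394572 UMIs (molecule tags that let each captured RNA be counted a single time), or 1.09% of all UMIs.

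Cadherins are calcium-dependent adhesion proteins that span the cell membrane and bind cadherins of a neighbouring cell through repeated extracellular domains. Classical cadherins, of type I and type II, hold catenins on their inner side and through them reach the actin cytoskeleton; type II members bind themselves and selected relatives, and are known in brain for differing between neuron types and for sorting axons and synapses. Non-clustered protocadherins of the delta-1 and delta-2 groups adhere more weakly and are known for roles in axon growth, dendrites and synapses, and Cdh23 with Pcdh15 forms the tip link of hair cells in the inner ear.

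Nuclear RNA of medial prefrontal cortex was read from the 3′ end (10x Genomics) in 4 samples of C57BL/6J mice aged 9 weeks. The tissue of all 4 expressed scFLARE2, a light- and calcium-gated reporter of neuronal activity, together with TRE-mCherry-p2a-bReaChES, a red fluorescent protein and an opsin under a promoter that tTA drives. Dissection came 24 hours after an injection of DOI, a psychedelic (2 samples, 1 female and 1 male), or of saline (2 samples, 1 female and 1 male). Barcode endings 1 to 4 separate 4 libraries, but no file or label read here says which sample an ending stands for, so DOI against saline and female against male were not compared, and the libraries serve below only to show spread.

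Of 22402 barcodes with 157575088 UMIs, 12991 nuclei were kept (4193, 3477, 1572 and 3749 in libraries 1 to 4), with a median of 8892 UMIs; 34 of them carry a barcode sequence that occurs in more than 1 library. Nuclei were clustered without the 35 genes, and clusters were named for resemblance to a class by marker genes outside the family. The 18 named classes and 2 unnamed groups held 8248 excitatory, 1318 inhibitory and 2765 non-neuronal nuclei, plus 338 resembling striatal medium spiny neurons, of which library 4 gave 1, and 207 resembling neuroblasts. A further 115 nuclei with neuronal and glial markers together were set aside. RNA of excitatory neurons was found in every class: Slc17a7, a marker of those neurons, stood at 246 CPM (a gene's UMIs relative to all UMIs of the class, in the usual CPM scale) in excitatory nuclei, 77.9 in inhibitory and 190 in non-neuronal nuclei. In non-neuronal nuclei Slc17a7 was lowest in library 3, at 112 CPM, against 185, 216 and 221 CPM in libraries 1, 2 and 4.

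Of the 35 genes, 25 had at least 500 UMIs in the nuclei kept and are described by class. The other 10 were near the limit of detection: Pcdh20 had 307 UMIs, Pcdh18 132, Cdh15 59, Cdh5 33, Cdh1 28, Cdh26 10, Cdh16 9, Cdh17 6, Pcdh12 3 and Cdh3 1. Cdh5, the cadherin of endothelial junctions, gave 6 of its 33 UMIs in the 198 endothelial-like nuclei, which were 1.52% of the nuclei kept.

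**Figure D1:**
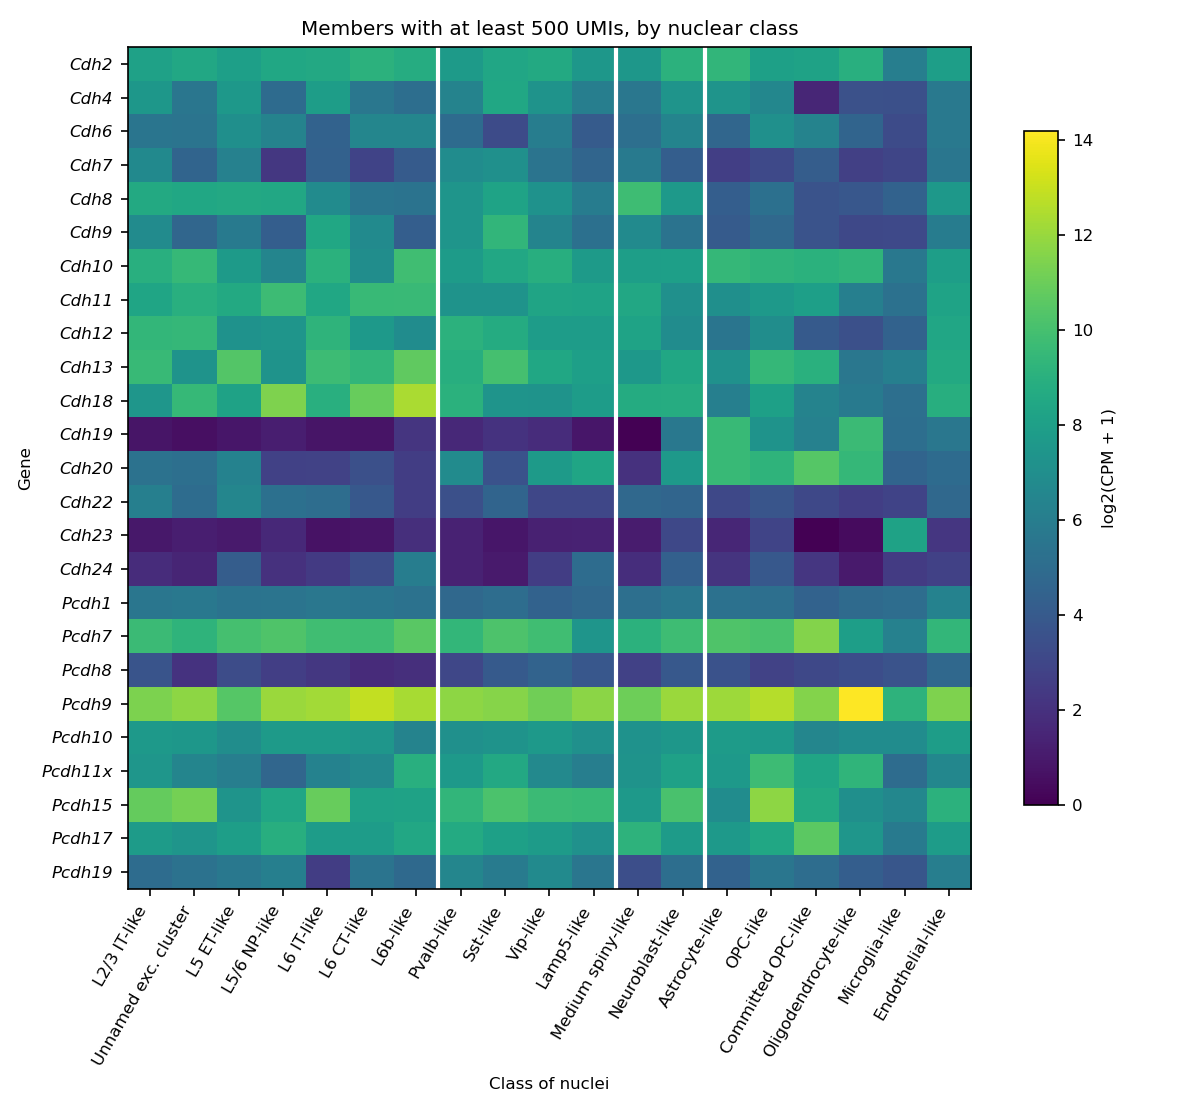
Level of the 25 members with at least 500 UMIs (rows) in each class (columns), as log2(CPM + 1) of UMIs summed over the nuclei of the class, from dark violet for low to yellow for high levels; white lines separate excitatory, inhibitory, other neuronal and non-neuronal classes. Pcdh9 is bright in most columns and brightest in oligodendrocyte-like nuclei, Cdh19 is near 0 in the neuronal columns, and Cdh23 stands out in the microglia-like column.

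Pcdh9 held 571676 of the 1394572 UMIs and had the highest CPM of the 35 genes in 17 of 18 named classes; L6b-like neurons were the exception, where Cdh18 led. In oligodendrocyte-like nuclei Pcdh9 alone made up 81.5% of the family's UMIs, and the family as a whole 2.27% of all UMIs of that class, against 0.170% in microglia-like nuclei. CPM is not scaled for gene length; the median gene span of the 25 was 195 kb, against 29.5 kb for all features with as many UMIs. Scaled to CPM per 100 kb of gene span, Pcdh9 led in 6 of the 18 classes, Pcdh17 in 4 and Pcdh8 in 3. Pcdh8 spans 4.54 kb, so this scale raises low levels: its highest among named classes was 26.8 CPM, in endothelial-like nuclei.

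**Figure D2:**
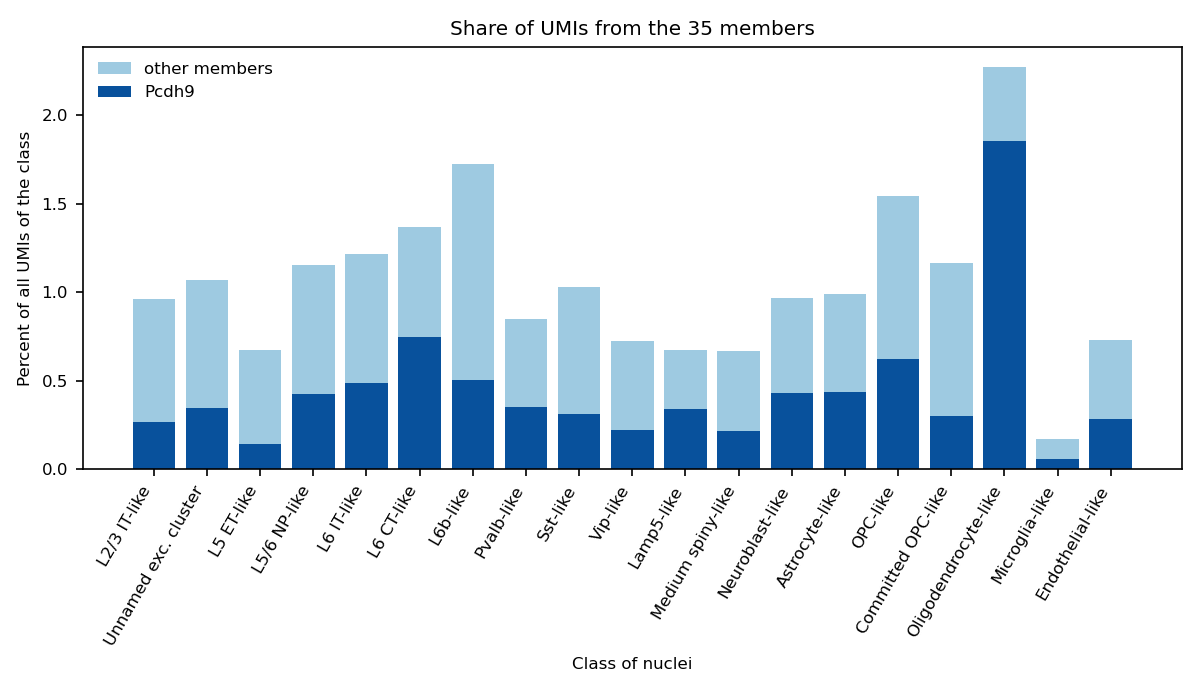
Percent of the UMIs of each class that came from the 35 genes, with the part from Pcdh9 in the dark colour and the other members in the light one. Oligodendrocyte-like nuclei reach 2.27%, most of it Pcdh9, and microglia-like nuclei lie lowest at 0.170%.

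To ask which members separate broad kinds of cell, UMIs were summed over each side and divided by its total. Genes with 100 or more UMIs across both sides were assessed, and a call required a difference of 2-fold or more that pointed the same way in each of the 4 libraries; this is a rule of size, since cells are not replicates, and no p-value was made. Between excitatory and inhibitory nuclei 12 of 27 members that could be assessed were called, 4 higher and 8 lower in excitatory nuclei, while the same rule called 16.7% of all genes (9.20% higher and 7.48% lower) and 13.4% of those with at least 500 UMIs. Between neurons (excitatory and inhibitory) and non-neuronal nuclei 14 of 27 were called, 8 higher and 6 lower in neurons, against 39.7% of all genes (13.7% higher and 26.1% lower) and 35.3% of those with at least 500 UMIs.

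The members higher in excitatory nuclei were all of type II. Cdh22 stood at 42.1, 38.8, 41.0 and 43.5 CPM in excitatory nuclei of libraries 1 to 4 and at 15.6, 14.8, 5.56 and 12.3 CPM in inhibitory nuclei, a log2 ratio of 1.69 (95% interval 1.47 to 1.93; intervals here cover counting error only). Cdh18 measured 988, 986, 922 and 1088 CPM against 351, 321, 340 and 341 CPM, a log2 ratio of 1.58 (1.54 to 1.63). For both genes the libraries of the 2 kinds did not overlap. Cdh11 (log2 ratio 1.41) and Cdh6 (1.31) made up the rest. Lower in excitatory nuclei were Cdh20, at 29.7, 23.9, 30.5 and 32.8 CPM against 121, 98.4, 139 and 124 CPM (log2 ratio -2.01), and Cdh7, Cdh9, Pcdh8, Pcdh11x, Pcdh19 and Pcdh20 with log2 ratios of -1.42 to -1.04. Pcdh18 had the most negative ratio, -3.35, but rests on 44 and 57 UMIs and fell under the minimum of 100 UMIs when any 1 library was left out.

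Higher in neurons, the leading members were Cdh18 and Cdh9. Cdh18 measured 938 CPM in neurons and 120 CPM in non-neuronal nuclei (92.1, 104, 65.9 and 196 by library), a log2 ratio of 2.97 (2.89 to 3.06). Cdh9 measured 136 CPM against 17.5 CPM (12.6, 12.7, 4.43 and 35.5 by library), a log2 ratio of 2.96 that was 3.74 without library 4. In non-neuronal nuclei both were lowest in library 3 and highest in library 4, as Slc17a7 was; the part of free RNA in these levels was not tested. Lower in neurons, Cdh19 and Cdh23 (1.04 against 41.2 CPM, log2 ratio -5.31) led.

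**Figure D3:**
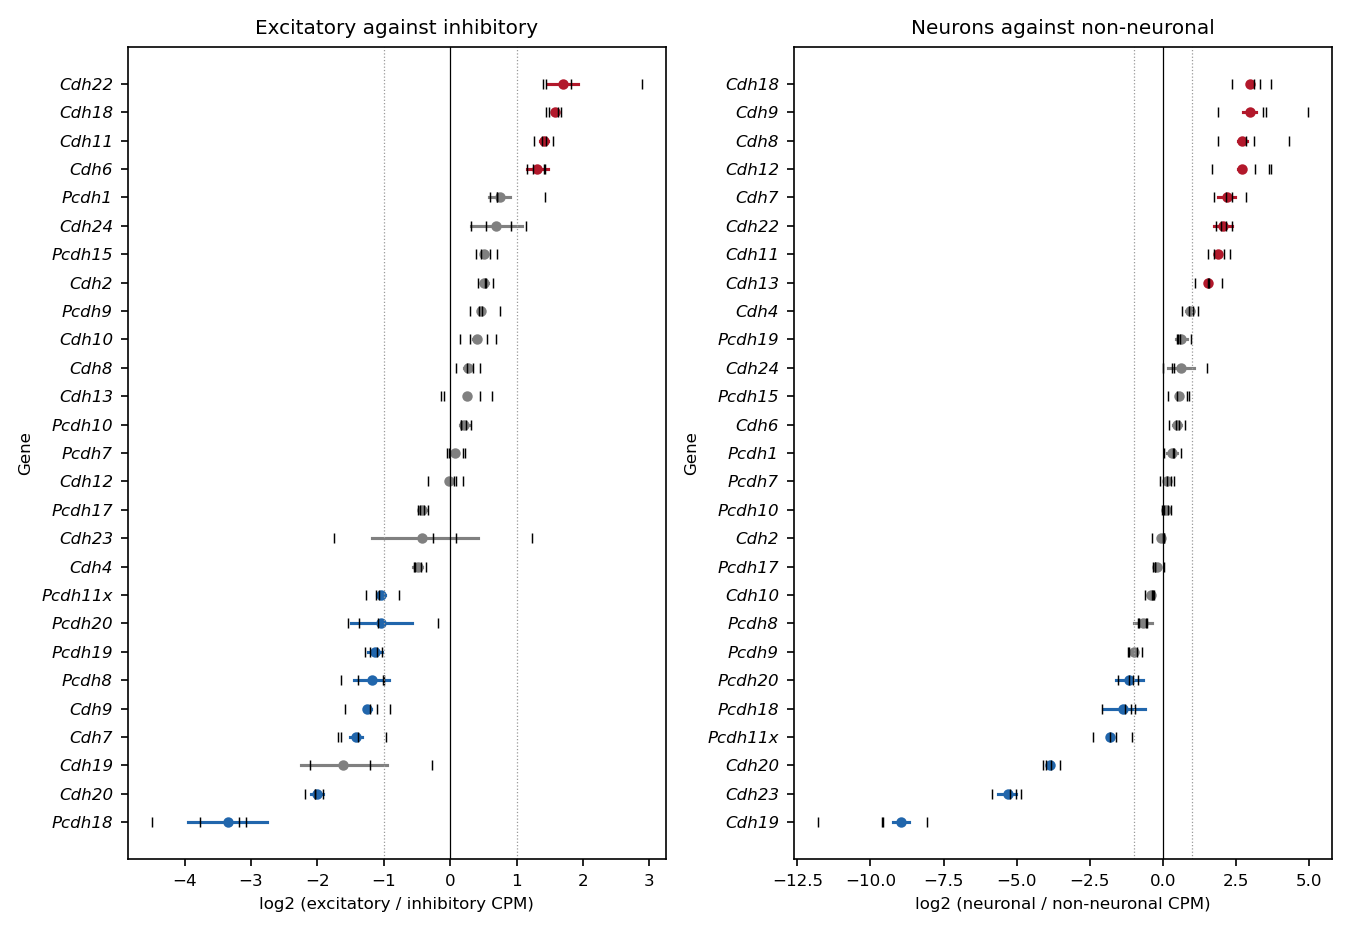
Log2 ratio of CPM for each assessed member, excitatory over inhibitory nuclei in one panel and neurons over non-neuronal nuclei in the other; dots are pooled values with 95% counting intervals, ticks the 4 libraries, dotted lines a 2-fold difference, and red and blue mark members called higher and lower. Cdh19 lies far out at -8.94 in neurons, and Cdh18, Cdh11, Cdh22 and Cdh6 are called on the excitatory side.

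Type I cadherins were represented by Cdh2 and Cdh4. Cdh2, or N-cadherin, the main classical cadherin of neural tissue, varied little among neurons: it was called in no excitatory or inhibitory subclass. It was highest in astrocyte-like nuclei at 634 CPM (550, 638, 690 and 661 by library), followed by L6 CT-like neurons at 557 CPM (554, 600, 568 and 527), and the libraries of the leading classes overlapped. Microglia-like nuclei had the lowest level, 66.2 CPM. Cdh4, or R-cadherin, was highest in Sst-like interneurons at 351 CPM (366, 387, 316 and 323 by library), then in L6 IT-like neurons at 234 CPM (215, 229, 258 and 243), with no overlap between those 2 classes. Cdh4 gave 1 UMI in the 94 nuclei resembling committed oligodendrocyte precursors.

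Of the type II cadherins, which bind both alike and unlike partners, several sit side by side. A run on chromosome 15 holds, in order, Cdh6 (chr15:13028701-13173675, minus strand), Cdh9 (chr15:16728756-16857094), Cdh10 (chr15:18818947-19014236), Cdh12 (chr15:20449265-21589533) and Cdh18 (chr15:22549022-23474418), the last 4 on the plus strand (GENCODE M21, build mm10). Among all pairs of the 24 members compared over the 18 named classes, Cdh9 and Cdh12 had the most similar levels (Pearson r of log2(CPM + 1) 0.854). Cdh10 lies between them, and genes next to each other in the run were less alike. For these, r was 0.485 for Cdh12 with Cdh18, 0.0464 for Cdh9 with Cdh10, -0.0247 for Cdh10 with Cdh12 and -0.181 for Cdh6 with Cdh9. These r describe classes that share libraries and carry no test.

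The promoters of Cdh9, Cdh12 and Cdh18 are shown because Cdh9 and Cdh12 were the pair most alike over classes while Cdh18, next to Cdh12, peaked elsewhere. Those of Cdh24 and Pcdh15 are shown because they hold the motifs searched. Each runs from 250 bases before to 50 after a transcript start in RefSeq (GRCm38.p6), 5′ to 3′ on the strand of the gene: chr15:16728665-16728964 (Cdh9, plus), chr15:21111202-21111501 (Cdh12, plus), chr15:23036213-23036512 (Cdh18, plus), chr14:54641315-54641614 (Cdh24, minus) and chr10:73821617-73821916 (Pcdh15, plus). For Cdh9, Cdh12, Cdh18 and Pcdh15 this start lies inside the GENCODE span of the gene, so other starts exist. Capitals mark TATAAA, a core of the TATA box, and GGGCGG, a core of the GC box, on either strand.
Cdh9: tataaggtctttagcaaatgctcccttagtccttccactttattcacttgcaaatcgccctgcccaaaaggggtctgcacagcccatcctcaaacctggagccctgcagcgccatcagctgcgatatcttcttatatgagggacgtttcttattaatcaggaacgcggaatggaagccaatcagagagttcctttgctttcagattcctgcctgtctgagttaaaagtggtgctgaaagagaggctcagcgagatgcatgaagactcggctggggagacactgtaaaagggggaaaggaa
Cdh12: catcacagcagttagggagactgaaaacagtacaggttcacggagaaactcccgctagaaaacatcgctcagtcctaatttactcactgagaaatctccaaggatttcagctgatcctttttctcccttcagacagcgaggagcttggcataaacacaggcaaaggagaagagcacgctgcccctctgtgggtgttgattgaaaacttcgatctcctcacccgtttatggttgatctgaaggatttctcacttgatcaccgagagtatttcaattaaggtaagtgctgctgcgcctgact
Cdh18: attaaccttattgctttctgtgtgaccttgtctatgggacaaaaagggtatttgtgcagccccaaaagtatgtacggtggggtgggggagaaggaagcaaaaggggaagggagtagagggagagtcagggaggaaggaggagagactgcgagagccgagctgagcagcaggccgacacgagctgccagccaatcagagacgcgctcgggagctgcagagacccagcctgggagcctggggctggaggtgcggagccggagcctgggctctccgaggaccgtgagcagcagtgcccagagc
Cdh24: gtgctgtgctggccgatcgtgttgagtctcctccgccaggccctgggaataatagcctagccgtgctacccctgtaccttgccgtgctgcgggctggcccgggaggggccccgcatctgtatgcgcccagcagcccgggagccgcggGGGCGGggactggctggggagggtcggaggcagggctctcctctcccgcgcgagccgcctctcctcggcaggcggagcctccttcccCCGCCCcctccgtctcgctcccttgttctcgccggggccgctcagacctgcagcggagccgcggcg
Pcdh15: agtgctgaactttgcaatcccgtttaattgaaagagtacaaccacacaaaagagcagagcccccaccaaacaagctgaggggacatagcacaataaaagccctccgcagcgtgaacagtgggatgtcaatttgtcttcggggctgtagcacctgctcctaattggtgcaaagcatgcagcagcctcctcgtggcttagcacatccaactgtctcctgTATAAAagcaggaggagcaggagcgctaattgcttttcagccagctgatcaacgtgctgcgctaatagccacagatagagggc
Neither motif occurs in the windows of Cdh9, Cdh12 and Cdh18; Cdh24 has 2 matches of GGGCGG and Pcdh15 has 1 of TATAAA. RefSeq windows were at hand for 22 of the 35 genes, 25 windows in all. TATAAA occurred in 2 of the 25 (8%), against 13.6% of all 32851 windows of that length, and GGGCGG in 9 (36%), against 35.7%. Counts of CG in the windows were 8 for Cdh9, 9 for Cdh12, 12 for Cdh18, 8 for Pcdh15 and 30 for Cdh24, beside a median of 7 over all windows.

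Cdh18 was highest in classes of the deep layers. L6b-like neurons held 5311 CPM (5249, 4867, 6038 and 5530 by library; library 3 gave 11 such nuclei), L5/6 NP-like neurons 2764 CPM (2704, 2386, 3461 and 2867) and L6 CT-like neurons 1895 CPM (1748, 1910, 2092 and 1940), while L2/3 IT-like neurons held 173 CPM (169, 161, 169 and 187). No library value of one of these 4 classes reached that of the next. The log2 ratio to the other excitatory nuclei was 2.53 in L6b-like and -2.77 in L2/3 IT-like neurons. Among inhibitory classes Cdh18 was highest in Pvalb-like interneurons, at 607, 511, 563 and 503 CPM, a log2 ratio of 1.66 to the other inhibitory nuclei.

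Cdh9 had another pattern. Sst-like interneurons led at 639 CPM (659, 488, 707 and 716 by library), with a log2 ratio of 2.28 (2.18 to 2.38) to the other inhibitory nuclei. L6 IT-like neurons followed at 344 CPM (327, 346, 385 and 340), a log2 ratio of 2.21 (2.16 to 2.27) to the other excitatory nuclei. Every library of Sst-like nuclei was above every library of L6 IT-like nuclei. At the low end, L5/6 NP-like neurons held 18.0 CPM and L6b-like neurons 17.7 CPM, each near the 17.5 CPM of non-neuronal nuclei. Pvalb-like interneurons, next after L6 IT-like neurons among named classes at 169 CPM, were called lower than the other inhibitory nuclei (log2 ratio -1.14). Those other nuclei include the Sst-like ones, and the call ended without library 4 (-0.98).

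Cdh12 was highest among named classes in L2/3 IT-like neurons at 672 CPM, then in L6 IT-like neurons at 595 CPM and Pvalb-like interneurons at 550 CPM. Among excitatory subclasses it was called lower in L5 ET-like, L5/6 NP-like, L6 CT-like and L6b-like neurons. Cdh10 was highest in L6b-like neurons at 892 CPM and lowest in microglia-like nuclei at 50.8 CPM, with 706, 611 and 597 CPM in astrocyte-like, oligodendrocyte-like and precursor-like nuclei. Cdh8 led in the nuclei resembling striatal medium spiny neurons, at 877 CPM (914, 625 and 1152 in libraries 1 to 3), against 389 CPM in L2/3 IT-like neurons. It was lowest among excitatory classes in L6b-like and L6 CT-like neurons, at 41.7 and 44.8 CPM, with log2 ratios of -2.52 and -2.75. Cdh11 was called in none of the 7 excitatory subclasses and ranged up to 854 CPM in L5/6 NP-like neurons. Cdh22 was highest in L5 ET-like neurons (89.1 CPM), and Cdh6 in L5 ET-like neurons and oligodendrocyte precursors (134 and 139 CPM), 2 classes whose libraries overlapped.

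Cdh7 was higher in L2/3 IT-like neurons, at 123, 108, 92.4 and 102 CPM by library, with a log2 ratio of 2.04 (1.94 to 2.13) to the other excitatory nuclei. It was nearly missing from L5/6 NP-like neurons, at 3.86 CPM from 15 UMIs (log2 ratio -3.39, and -4.27 without library 4). Cdh24 is a short gene of 10.1 kb that was rare in all classes, yet L6b-like neurons held 65.9, 43.6, 79.0 and 70.0 CPM, against 6.63 CPM in the other excitatory nuclei (log2 ratio 3.24, 2.96 to 3.51). All 4 libraries showed the difference, with log2 ratios of 2.90 to 4.18. After thinning to 1500 UMIs per nucleus the ratio was 3.98, but too few UMIs remained for a call.

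Cdh19 and Cdh20 were the type II cadherins called lower in neurons. They lie on chromosome 1 with Cdh7 between them. Cdh19 gave 107 UMIs in all excitatory and inhibitory nuclei (0.947 CPM) and 466 CPM in non-neuronal nuclei (565, 378, 465 and 468 by library), a log2 ratio of -8.94 (-9.23 to -8.67) for neurons, and of -9.82 without library 4. Oligodendrocyte-like nuclei held 821 CPM (922, 754, 746 and 838; log2 ratio 1.41 to the other non-neuronal nuclei) and astrocyte-like nuclei 762 CPM (847, 585, 797 and 841), and these classes overlapped. Cdh20 was also lower in neurons (39.4 against 568 CPM, log2 ratio -3.85), but neurons were not uniform. Lamp5-like interneurons held 426, 227, 245 and 361 CPM and Sst-like interneurons 5.88, 5.05, 4.86 and 20.5 CPM, which do not overlap; the log2 ratio of Cdh20 in Sst-like to the other inhibitory nuclei was -3.93, and -4.89 without library 4. L5 ET-like neurons were the excitatory class called higher, at 78.3 CPM against 20.3 CPM (log2 ratio 1.95). The highest level of Cdh20 was 1406 CPM, in committed oligodendrocyte precursor-like nuclei (1517, 1668, 1904 and 946 by library; libraries 2 and 3 gave 15 such nuclei each).

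Cdh13, or T-cadherin, lacks the cytoplasmic tail and is held to the membrane by a lipid anchor. It was highest in L6b-like neurons (1527, 1896, 2290 and 1444 CPM by library), then in L5 ET-like neurons (1413, 1365, 1103 and 1282) and Sst-like interneurons (769, 889, 1249 and 1221). The first 2 classes did not overlap, while L5 ET-like and Sst-like did. The ratio to the other excitatory nuclei was 1.26 on the log2 scale in L6b-like and 1.16 in L5 ET-like neurons, but below 1 in library 2 of the latter (0.88). The unnamed excitatory cluster of 1411 nuclei, led by Scn7a, Il1rapl2 and Rorb among other genes, and L5/6 NP-like neurons were called lower, at 157 and 153 CPM. Library 3 gave the lowest value of the 4 in excitatory nuclei as a whole, 478 CPM against 771, 853 and 646 CPM.

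L6 CT-like neurons comprised 2 clusters, 2005 nuclei led by Syt6, Foxp2 and Cpa6 among others and 463 led by Spag16, Alkal1 and Col23a1; they were compared after the data had been seen. Cdh13 stood at 368 CPM in the larger and 1630.1 CPM in the smaller cluster, a log2 ratio of -2.15 (-2.19 to -2.10), and between -2.29 and -1.99 in the 4 libraries. Cdh6 was lower in the larger cluster as well (66.4 against 167 CPM, -1.33), and Cdh24 (10.2 against 3.47 CPM, log2 ratio 1.56) and Cdh20 (11.9 against 2.77 CPM, 2.09) were higher. Those 4 of the 22 members assessed compare with 3.37% of all genes.

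**Figure D4:**
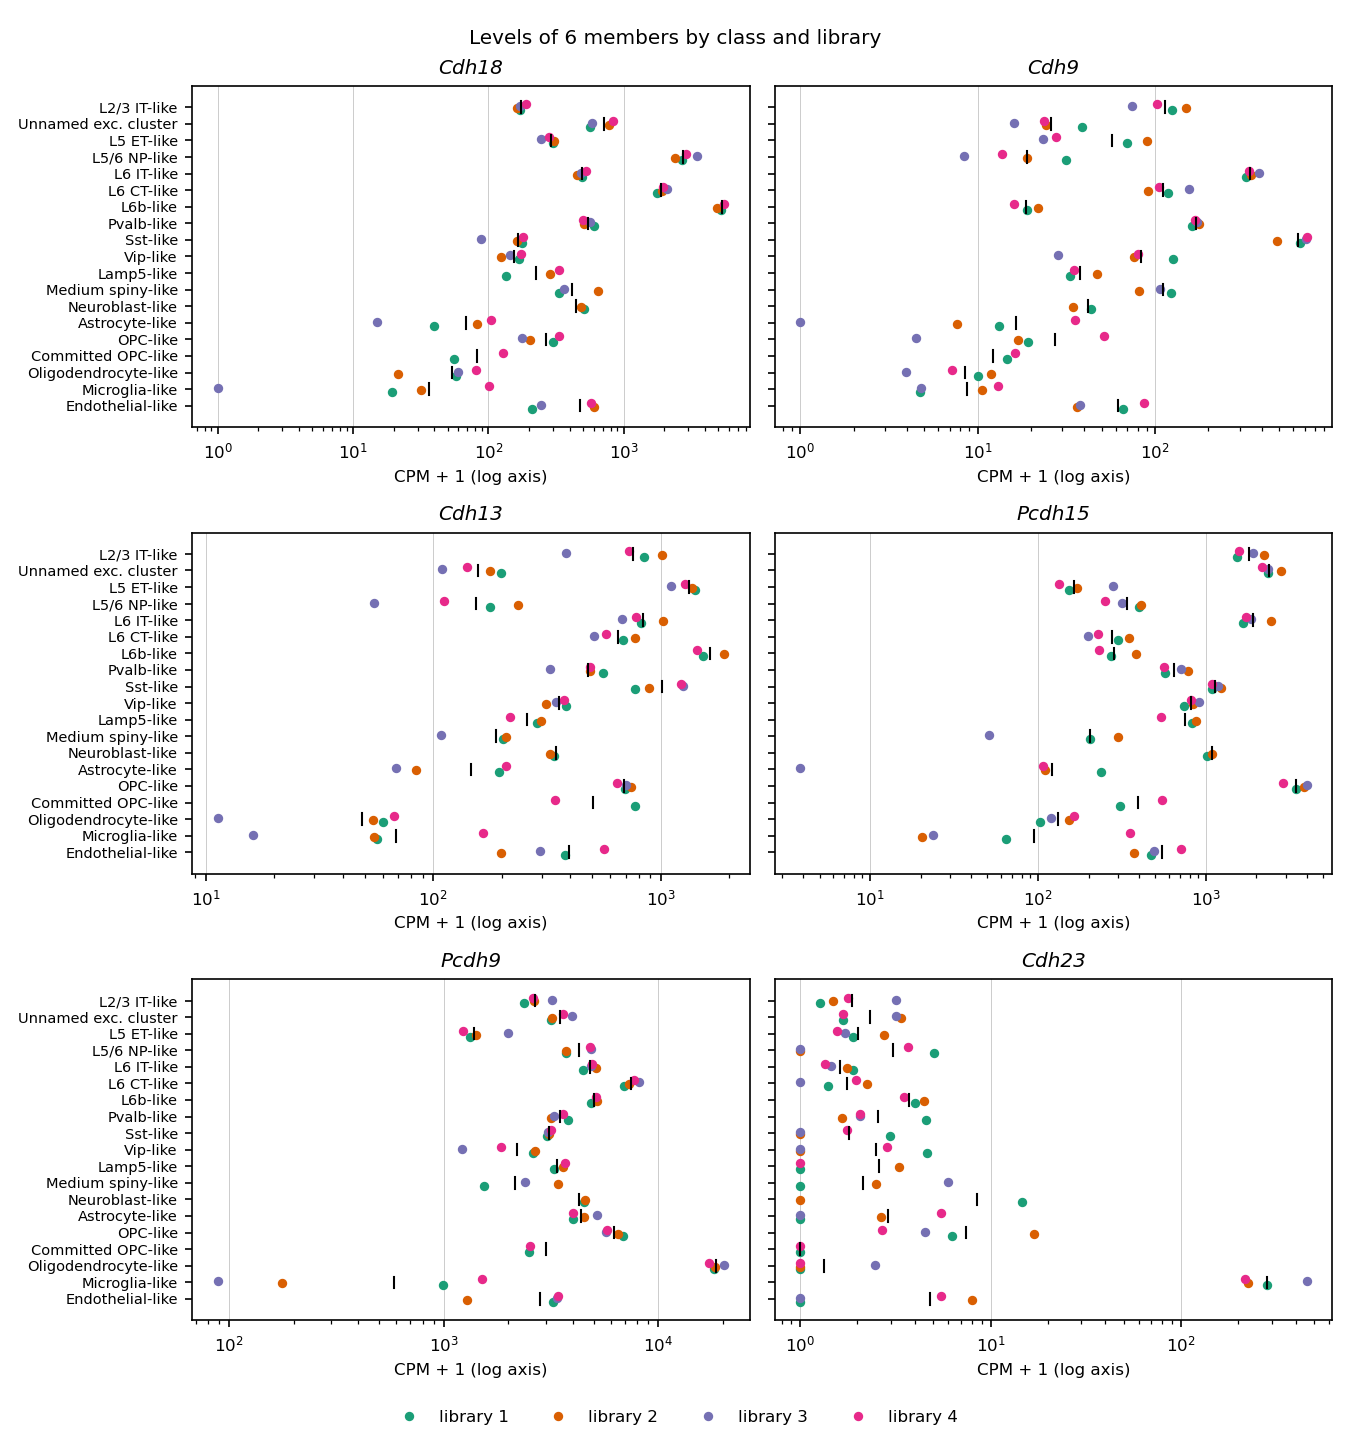
Level of Cdh18, Cdh9, Cdh13, Pcdh15, Pcdh9 and Cdh23 in each class and library, on a log axis of CPM + 1; points are libraries with at least 20 nuclei of the class, and the black bar is the pooled value. For Cdh18 the points of L6b-like, L5/6 NP-like, L6 CT-like and L2/3 IT-like neurons form separate steps from 5311 down to 173 CPM, and Cdh23 rises only in microglia-like nuclei among the named classes, to 282 CPM.

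The tip-link pair was split between cell types. Pcdh15 was highest in oligodendrocyte precursor-like nuclei, at 3437, 3845, 3983 and 2878 CPM by library, a log2 ratio of 4.04 (3.96 to 4.12) to the other non-neuronal nuclei. It was also abundant in the unnamed excitatory cluster (2373 CPM), L6 IT-like (1902 CPM) and L2/3 IT-like neurons (1799 CPM). L5 ET-like neurons held 152, 169, 281 and 133 CPM, a log2 ratio of -3.08 (-3.14 to -3.03), and L6 CT-like (273 CPM), L6b-like (282 CPM) and L5/6 NP-like neurons (336 CPM) were called lower too. The libraries of the 3 high excitatory classes stood apart from those of all 4 low ones.

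Cdh23, its partner, was found in microglia-like nuclei: 282, 224, 457 and 217 CPM in libraries 1 to 4, against 3.28 CPM over the other non-neuronal nuclei (27 UMIs) and 1.04 CPM in neurons. The log2 ratio within non-neuronal nuclei was 6.43 (5.86 to 7.05), and between 5.58 and 8.46 by library. Of 507 microglia-like nuclei 234 had a Cdh23 UMI (46.2%, exact binomial interval 41.7 to 50.6%), at a median of 2353 UMIs per nucleus. Of L6 CT-like nuclei, at a median of 9868 UMIs, 0.810% had one. Vsir, an immune checkpoint receptor, lies within Cdh23 on the opposite strand and stood at 224 CPM in microglia-like nuclei and 4.72 CPM in astrocyte-like nuclei. Cdh23 was present in 56.0% of microglia-like nuclei with a Vsir UMI and in 39.3% of those without, at median depths of 2424 and 2264.5 UMIs. Whether the counting used strand is not given in the sources used here, so reads of Vsir counted for Cdh23 cannot be told apart from its own. When barcodes were limited to 1% mitochondrial UMIs the microglia-like class shrank to 76 nuclei, the log2 ratio fell to 1.54 and the call was lost.

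Delta-1 protocadherins comprised Pcdh1, Pcdh7, Pcdh9 and Pcdh11x. Pcdh9 in oligodendrocyte-like nuclei measured 18201, 18399, 20325 and 17249 CPM by library, against 3755 CPM in the other non-neuronal nuclei, a log2 ratio of 2.30. L6 CT-like neurons came next at 6963, 7314, 8116 and 7717 CPM, with no overlap. L5 ET-like neurons were lowest among excitatory classes at 1333, 1421, 2006 and 1227 CPM (log2 ratio -1.82). Microglia-like nuclei had 998, 176, 87.5 and 1513 CPM, a wide spread in which library 3 was lowest both here and for Slc17a7 (129 CPM, against 237, 272 and 298 CPM in libraries 1, 2 and 4); the part of free RNA in it was not tested.

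Pcdh7 peaked in the committed oligodendrocyte precursor-like nuclei, at 2931, 3533, 3059 and 2638 CPM, against 650 CPM in the other non-neuronal nuclei (log2 ratio 2.18). L6b-like neurons followed at 1474 CPM, and oligodendrocyte-like nuclei, the mature stage of the same lineage, held 245 CPM (log2 ratio -2.05). Pcdh11x, on the X chromosome, was highest in oligodendrocyte precursor-like nuclei at 785, 1108, 847 and 645 CPM. In oligodendrocyte-like nuclei its libraries were spread widely, at 1152, 297, 225 and 708 CPM, and overlapped with the precursors. Among excitatory classes L6b-like neurons stood out for Pcdh11x, at 493 CPM (454, 534, 407 and 515) against 97.8 CPM (log2 ratio 2.33). Pcdh1 was low throughout, up to 76.5 CPM in endothelial-like nuclei, and was called in no neuronal subclass.

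Delta-2 protocadherins were Pcdh8, Pcdh10, Pcdh17, Pcdh18 and Pcdh19. Pcdh17 was highest in committed oligodendrocyte precursor-like nuclei, at 1810.5, 1564, 2282 and 1012 CPM, a log2 ratio of 2.97 (2.85 to 3.09), followed by medium spiny-like nuclei at 567 CPM and L5/6 NP-like neurons at 479 CPM. Pcdh10 was the most even member of the family, between 81.1 CPM in L6b-like neurons and 241 CPM in endothelial-like nuclei. Pcdh19, the X-linked gene of a female-limited epilepsy in people, was highest in Vip-like interneurons at 110.5 CPM and was nearly missing from L6 IT-like neurons, at 4.50, 5.05, 2.76 and 6.07 CPM against 42.0 CPM in the other excitatory nuclei (log2 ratio -3.08). Pcdh8, an activity-regulated protocadherin, was low in every class, with 11.8 CPM in L2/3 IT-like neurons against 4.20 CPM in the other excitatory nuclei (log2 ratio 1.49).

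The counts over subclasses summarise these patterns. Among 7 excitatory subclasses, each against the other excitatory nuclei, 70 of 175 gene and class pairs of members were called (40%), 21 higher and 49 lower, against 9.65% of pairs over all genes (2.96% higher and 6.70% lower) and 7.86% for genes with at least 500 UMIs. L6b-like neurons had 15 of 25 members called, 5 higher and 10 lower, beside 12.7% of all genes. L5/6 NP-like neurons had 13, of which 2 were higher, beside 14.0%, and L5 ET-like neurons 12, evenly divided, beside 9.00%. L6 CT-like neurons followed with 11 (10.3% of all genes) and L6 IT-like neurons with 9 (5.91%). The unnamed excitatory cluster had 6 (6.59%) and L2/3 IT-like neurons 4 (9.07%).

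Further calls were among the largest of their subclass. On the higher side, Cdh18 had log2 ratios of 1.55 in L5/6 NP-like and 1.43 in L6 CT-like neurons, Pcdh17 of 1.11 in L5/6 NP-like (504, 525, 470 and 433 CPM by library), and Pcdh9 of 1.20 in L6 CT-like neurons. Cdh4 had a log2 ratio of 1.24 in L6 IT-like and Cdh22 of 1.44 in L5 ET-like neurons, whose libraries held 86.0, 78.8, 80.7 and 103 CPM. The unnamed excitatory cluster was set apart by Pcdh15 (log2 ratio 1.41) and Cdh10, at 650, 706, 730 and 781 CPM against 315 CPM (1.20).

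On the lower side, most of these calls were of type II cadherins. Cdh9 had log2 ratios of -2.77 in L6b-like, -2.76 in L5/6 NP-like and -2.49 in the unnamed cluster (25.0 against 141 CPM), with the same sign in all 4 libraries of each. Cdh18 was at 300, 306, 246 and 278 CPM in L5 ET-like neurons (-1.99). Cdh7 measured 6.34 CPM in L6 CT-like neurons (3.90 to 9.10 by library, -2.99), Cdh20 5.99 CPM in L6 IT-like neurons (3.54 to 9.88, -2.50) and Cdh24 2.47 CPM in L2/3 IT-like neurons (0.943 to 3.38, -1.85). Cdh22 gave 11 UMIs in L6b-like neurons, none of them in library 2 (4.99 CPM, log2 ratio -3.09). Cdh13, of another type, had a log2 ratio of -2.43 in the unnamed cluster.

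Among 4 inhibitory subclasses 29 of 88 pairs were called, 11 higher and 18 lower, against 8.50% over all genes (3.12% higher and 5.38% lower) and 8.93% for genes with at least 500 UMIs. Sst-like interneurons had 9 of 22 members called, 6 of them higher, beside 6.63% of all genes, and Lamp5-like interneurons also 9, of which Cdh20 alone was higher (log2 ratio 1.75), beside 9.29%. Vip-like interneurons had 8 (9.88% of all genes), with Cdh6 at 63.8 against 21.0 CPM, and Pvalb-like interneurons 3 (8.20%). Cdh9 was called in each of the 4, higher in Sst-like and lower in the others. Sst-like nuclei, at 639 CPM, stand among the nuclei compared with in each of the lower calls. The ratio was -3.06 in Lamp5-like and -1.94 in Vip-like interneurons, at 36.8 and 82.4 CPM. Pvalb-like interneurons, also called lower, were above both at 169 CPM.

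Cdh4 separated Sst-like from Pvalb-like interneurons: the log2 ratio was 1.89 in the former and -1.62 in the latter, which held 79.3, 96.0, 97.3 and 57.6 CPM by library. Cdh6 was at 8.82, 8.07, 14.6 and 6.85 CPM in Sst-like interneurons (log2 ratio -2.06) and at 63.6, 75.2, 73.0 and 46.3 CPM in Vip-like ones (1.61), with no overlap; with doublets kept the first was no longer called (-0.83). Pcdh7, a delta-1 protocadherin, was low in Lamp5-like interneurons, at 154, 199, 81.6 and 160 CPM against 886 CPM (-2.43). Pcdh8 in Vip-like interneurons had a log2 ratio of 1.07 from 44 UMIs, a call that ended without library 1 (0.86) or library 2 (0.97).

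**Figure D5:**
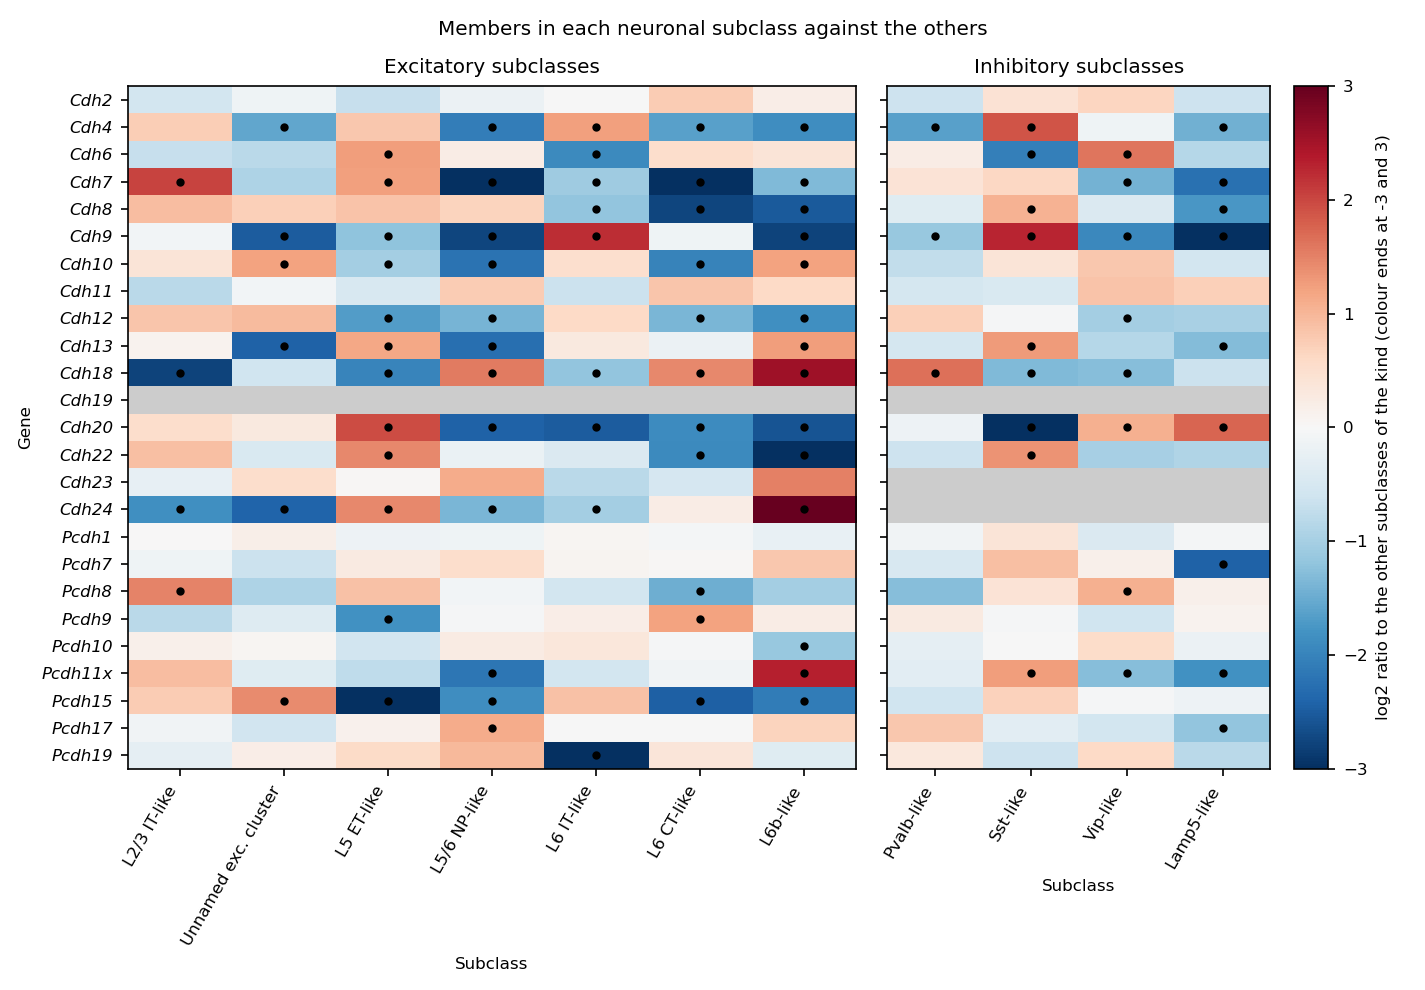
Log2 ratio of CPM of each member (rows) in each neuronal subclass against the other excitatory or inhibitory nuclei (columns), red higher and blue lower; black dots mark calls and grey cells have under 100 UMIs. Rows are the members with at least 500 UMIs, which leaves out Pcdh20, one of the 25 assessed in excitatory subclasses. Of those 25, L6b-like and L5/6 NP-like neurons had the most called, 15 and 13. Cdh9 carries a dot in each of the 4 inhibitory columns.

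Among 7 non-neuronal classes 79 of 147 pairs were called, 24 higher and 55 lower, against 26.4% over all genes (8.39% higher and 18.0% lower) and 29.6% for genes with at least 500 UMIs. Microglia-like nuclei had 17 members lower and 1 higher of 21, beside 34.0% of all genes called. Oligodendrocyte precursor-like nuclei had 7 higher and 2 lower (21.7% of all genes), with Cdh6 (log2 ratio 2.41) and Cdh13 (2.32) next to Pcdh15. Oligodendrocyte-like nuclei had 13 called (29.5% of all genes), with Pcdh9 and Cdh19 the higher ones, and the committed precursors 12 (27.8%). Astrocyte-like nuclei had 7 (24.7%), with Cdh4 the higher one (163 against 40.2 CPM, log2 ratio 2.02). The unnamed group, between fibroblasts and pericytes in its markers, also had 7 (14.0%).

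Cdh20 and Cdh23 recurred among the lowest ratios of these classes. Cdh20 measured 22.3 CPM in microglia-like nuclei (44.5, 15.4, 0 and 36.2 by library, log2 ratio -4.87) and 30.6 CPM in endothelial-like nuclei (16 UMIs, -4.29). In the unnamed group it was at 91.0 CPM (-2.70), where Cdh19 was also lower (93.4 CPM, -2.37) and Cdh4 higher (184, 187, 168 and 78.0 CPM by library, 1.34, but 0.03 in library 4). Cdh23 gave 11 UMIs in oligodendrocyte precursor-like nuclei (-2.91, and -3.88 without library 2) and 4 in astrocyte-like nuclei (-4.80, and -6.45 without library 4). It gave 2 in endothelial-like nuclei (-3.50, interval -6.55 to -1.64), 1 in oligodendrocyte-like nuclei (-7.45, -12.76 to -4.97, and -5.23 without library 3) and 0 in the committed precursors, where the floor of 3 UMIs puts the log2 ratio at -2.95 or lower. Microglia-like nuclei, with 366 of the 393 Cdh23 UMIs of non-neuronal nuclei, stand among the nuclei compared with in each of these.

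Other members low in a glial class were Pcdh15 in astrocyte-like nuclei (238, 110, 2.83 and 106 CPM, log2 ratio -3.02) and Cdh12 in oligodendrocyte-like nuclei (14.8, 5.45, 1.47 and 18.4 CPM, -3.17). Cdh19 was called lower in oligodendrocyte precursors (178, 150, 134 and 158 CPM, -1.77). Among named classes the precursors still came next for Cdh19 after oligodendrocyte-like and astrocyte-like nuclei (821 and 762 CPM), which stand among the nuclei compared with. Pcdh9 in microglia-like nuclei had a log2 ratio of -4.03, and of -4.82 without library 4. The single Cdh4 UMI of the committed precursors came from library 4 (log2 ratio -5.25, interval -10.55 to -2.76), and without that library the floor gives -2.91. With doublets kept, neither Cdh12 in oligodendrocyte-like nuclei (-0.49) nor Cdh4 in committed precursors (-0.71) was called.

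Endothelial-like nuclei had 7 higher and 6 lower, beside 33.0% of all genes called. The higher ones were led by Cdh8 (78.3, 56.3, 135 and 332 CPM by library, log2 ratio 2.85), Cdh12 (209, 77.4, 613 and 427 CPM, 2.68) and Cdh18 (476 CPM, 2.27), all called higher in neurons. In that class, whose leading genes included globins, the 5 markers of excitatory neurons summed to 1185 CPM, against 880 to 1424 CPM in the excitatory classes and 303 to 474 CPM in the other non-neuronal classes, and all 5 were at 10 CPM or more. The part of neuronal RNA in these 3 ratios was not tested. The ratio of Cdh8 was 2.01 without library 4, and with doublets kept it was no longer called (1.21).

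Nuclei with and without a UMI of the mCherry reporter were compared within each named class that held at least 50 nuclei with one. Those with one numbered 167 L2/3 IT-like, 95 L5 ET-like, 225 L6 CT-like and 123 L6 IT-like nuclei. The unnamed excitatory cluster was left out whatever its number. Members were called in 2 of 86 pairs, both lower with the reporter, against 0.676% of pairs over all genes. They were Cdh9 in L5 ET-like neurons (22.4 against 60.4 CPM, log2 ratio -1.43) and Cdh20 in L6 CT-like neurons (4.63 against 10.5 CPM, -1.18). By library the ratio of Cdh9 was -0.44, -2.11, -0.47 and -0.94. Each rests on few UMIs, 37 and 13 on the reporter side, and neither call held when nuclei had equal weight (-1.18 without a common sign in the 4 libraries, and -0.87). At 20% mitochondrial UMIs both calls also ended (-0.68 and -0.54). That of Cdh9 ended as well with 1000 genes (-0.75), with doublets kept (-0.85) and at resolution 2.0 (-0.74). Nuclei with the reporter were deeper (median 15442 against 13563 UMIs in L5 ET-like neurons) and came unequally from the libraries, with 4.34, 12.7, 4.55 and 11.8% of that class positive.

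How uneven a gene was over the 18 named classes was summarised by tau, which is 0 for equal levels and 1 for a gene found in 1 class. The median tau of the 24 members with at least 500 UMIs in these classes was 0.746, against 0.574 over 12069 genes. Cdh23, described above for microglia-like nuclei, had fewer UMIs than that in the named classes and so has no tau here. Of the 24, Cdh19 (0.918), Cdh18 (0.905) and Cdh9 (0.887) were the most uneven, and Pcdh10 (0.342) and Cdh2 (0.494) the least. Besides Cdh9 with Cdh12, the pairs most alike over classes were Cdh11 with Cdh18 (r 0.820) and Cdh8 with Cdh22 (0.776). The 3 least alike pairs all held Cdh19: r was -0.737 with Cdh12, -0.688 with Cdh8 and -0.629 with Cdh9.

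Genes that work with cadherins were counted by the same rule in excitatory subclasses. Of 77 pairs for 11 catenins and linked proteins 6 were called, beside 9.65% over all genes. Among them Jup, or plakoglobin, was higher in L6 CT-like neurons (21.8 against 5.24 CPM, log2 ratio 2.06) and Pkp4 in L6b-like neurons (552 against 175 CPM, 1.66). Clustered protocadherins, whose isoforms are chosen by single neurons, were called in 3 of 147 pairs, with 21 of 39 assessed. UMIs summed over a class do not show such choice. The large and seven-pass cadherins and calsyntenins were called in 18 of 70 pairs, led by Dchs2, a partner of Fat cadherins, with a log2 ratio of 4.07 in L5 ET-like neurons (39.6 against 2.36 CPM) and -4.85 in L6 CT-like neurons. Nectins, adhesion proteins of the immunoglobulin family, were called in 14 of 21 pairs, with Nectin3 at 118 against 19.5 CPM in L2/3 IT-like neurons (log2 ratio 2.59) and Nectin1 at 3.13 against 29.5 CPM in L6 CT-like neurons (-3.24). Between excitatory and inhibitory nuclei the counts were 2 of 11, 1 of 21, 3 of 10 and 1 of 3 in the same order, beside 16.7% of all genes.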

How the data were processed

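Nuclei of 4 samples were profiled, and 1 pooled matrix of UMI counts, whole numbers by gene and barcode, was deposited, made by the authors with Cell Ranger 7.1.0 on mm10, per the submitters' processing notes and the file headers. How barcodes were chosen is not given in the sources used here. The genes and lists were chosen with earlier results of these data known.

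Barcodes were kept with at least 500 genes, 800 UMIs and at most 5% mitochondrial UMIs; 9132 were removed, 8638 of them over the mitochondrial limit. Scrublet in scanpy 1.11.5, run within each library, removed 279 above a score of 0.25. The 2000 most variable genes, without the 35 genes, their partner lists, and sex-linked, mitochondrial and reporter genes, gave 30 principal components, 15 neighbours and 22 Leiden clusters at resolution 1.0. A cluster was named with at least 3 markers 2-fold enriched and at 10 CPM or more, and stayed unnamed where the runner-up type reached more than 0.85 of the leading score. A neuronal cluster without a name but with 3 or more enriched markers of a glial type was set aside, a rule made after seeing it.

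UMIs were summed per class and divided by the class total. Ratios have exact conditional binomial 95% intervals, which cover counting error only. Features at 0 on 1 side were set to 3 UMIs for the ratio. Named were, in each comparison, the 2 called members with the largest ratios in each direction, at most 2 partner genes per list, and the members that led a class; other members were named after their values were seen. The scripts were tested on simulated counts. Positions are from GENCODE M21, promoters from RefSeq; no genome sequence and no protein table were used. Alternatives were limits of 1% and 20% mitochondrial UMIs, 1000 genes, doublets kept, resolutions 0.5 and 2.0, the 35 genes allowed among the variable genes, thinning to 1500 UMIs, equal weight of nuclei or of libraries, other minimum UMIs of a gene, and leaving out each library. Further software was igraph 0.11.9, scikit-learn 1.9.0, scipy 1.17.1 and numpy 2.4.6 under Python 3.11.15.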

Additional observations from a re-analysis of the deposited data

How the results depend on the processing

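Of 77 ratios named by rule, 50 were called alike under every alternative that gave a value; of 1104 values under alternatives 1052 kept their call, 52 kept the direction without a call, and none reversed. Clusters without a name were not followed where nuclei were clustered anew, since other nuclei are unnamed there. A ratio has no value where its class did not form, so such settings could not test it. No L6 IT-like class formed at 1% or 20% mitochondrial UMIs, with 1000 genes, at resolution 2.0, or with the family among the variable genes. It formed with doublets kept (1065 nuclei) and at resolution 0.5 (1210 nuclei). No endothelial-like class formed at 1% or 20% mitochondrial UMIs, with 1000 genes or at resolution 0.5. At most 1% mitochondrial UMIs left 33 oligodendrocyte-like, 39 astrocyte-like and 76 microglia-like nuclei. Classes under 50 nuclei were not compared, so microglia-like nuclei and an unnamed group of 118 were the non-neuronal classes left. No Lamp5-like class formed. Over these fewer classes, the counts of calls fell to 6 for neurons against non-neuronal nuclei, 18 for inhibitory subclasses and 16 for non-neuronal classes. The median tau was 0.640 at that limit. At most 20% gave 19 calls for inhibitory subclasses, where no Lamp5-like or Vip-like class formed. For non-neuronal classes 50 pairs were called with doublets kept and 49 at resolution 0.5, where the median tau was 0.699. At that resolution no oligodendrocyte precursor-like, committed precursor-like or endothelial-like class formed, so fewer pairs were compared. Calls between reporter-positive and reporter-negative nuclei fell from 2 to 1 with at least 1000 genes, with doublets kept or with at least 500 UMIs of a gene, and to 0 with nuclei of equal weight; thinning left too few nuclei to compare. The nuclei, genes or classes compared changed with the setting, and these counts are not shares of the pairs assessed. The cause of these changes was not tested. Leaving out each library in turn gave 10 to 11 calls for excitatory against inhibitory nuclei, 12 to 15 for neurons, 68 to 71, 27 to 31 and 78 to 79 for the 3 sets of subclasses, 2 for the reporter and a median tau of 0.731 to 0.750. No paired analysis was possible because no library could be tied to a sample.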
